A study of Mus musculus with 14 samples.

Results

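A set of 9 genes of the Hedgehog pathway was examined in bulk RNA-seq libraries of plexiform neurofibromas (PNs), benign nerve tumors that form when Schwann cells (SCs) lose both copies of *Nf1*. The 9 genes encode the ligands (*Shh*, *Dhh*, *Ihh*), the membrane proteins that bind them or pass on their signal (*Ptch1*, *Smo*, *Hhip*), and the GLI transcription factors (*Gli1*, *Gli2*, *Gli3*). They were taken by symbol from the table of read counts per gene, which holds 24062 genes, and all 9 were found. There were 14 libraries, each labeled with its own identifier. The 3 controls were dorsal root ganglia (DRGs) with their nerves from Nf1fl/fl mice, which carry floxed *Nf1* but no Cre, and the 11 PNs came from DhhCre;Nf1fl/fl mice. Of these PNs, 5 were slow growing and 6 were fast growing by MRI at 7 and 9 months: volume changed by less than 5 mm3 over 2 months in the first group, and rose by more than 35 mm3 in the second. The mice were 9 months old, of a mixed C57BL/6, I-129 and FVBN background, and no drug treatment is given for any of them. Cre was driven by regulatory sequence of *Dhh*, which acts in the SC lineage from embryonic life, so that every PN and no control carried a transgene built on 1 of the genes examined. Whether the transgene adds reads to *Dhh* was not tested. Counts over the whole of *Nf1* do not check the deletion, since only the floxed exons of SCs are removed, and *Nf1* was at 171 ± 51.5 CPM (SD, n = 3) in controls and at 248 ± 22.9 (n = 11) in PNs.

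Hedgehog proteins are secreted signals. Without them, the receptor PTCH1 keeps the membrane protein SMO inactive, and GLI3 is processed, in large part, to a repressor. When a Hedgehog protein binds PTCH1, SMO becomes active in the primary cilium and GLI proteins activate transcription. *Ptch1*, *Gli1* and *Hhip*, which encodes a decoy that binds the ligands at the cell surface, are the textbook response genes of the pathway. In peripheral nerve, SCs make *Dhh*, and the fibroblast-like cells that become the perineurium, the sheath around nerve bundles, receive the signal.

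Levels are given as CPM, a gene's counts divided by the library's total, scaled with TMM factors. Total counts per library ran from 9596773 to 17594164. A level of 3 counts corresponded to 0.166 to 0.317 CPM, a floor that covers counting error only. The test was edgeR's quasi-likelihood test, run over all genes that passed a filter on low counts, and genes with a Benjamini-Hochberg adjusted p below 0.05 are referred to as called. The 3 comparisons with controls share the same 3 libraries.

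Some libraries stood apart. The summed level of 13 skeletal muscle markers was 3805 to 15420 CPM in controls and 22.2 to 3590 CPM in PNs, and that of 11 fat markers was 4223 to 6462 CPM and 31.5 to 3432 CPM, so that control and PN libraries differed in these tissues. No muscle marker was at 0 in any library, and 1, 1, 2 and 4 fat markers were at 0 in PNs 1203, 1191, 1179 and 1216. For 12 neuron markers, slow-growing PN 1203 had the highest sum (14110 CPM) and fast-growing PN 1191 the lowest (34.3 CPM), against 1653 to 6002 CPM in controls and 2336 to 8245 CPM in the other 9 PNs. PN 1203 was also lowest in the 6 perineurial markers (184 CPM) and the 9 fibroblast markers (1261 CPM). The 9 fibroblast markers summed to 1950 to 3766 CPM in controls, 1261 to 5584 CPM in slow-growing PNs and 5477 to 10360 CPM in fast-growing PNs, each of which was above every control. The 7 macrophage markers found summed to 414 ± 228 CPM (SD, n = 3), 177 ± 157 (n = 5) and 508 ± 213 (n = 6) in the same order, and 7 endothelial markers to 360.0 to 489 CPM, 99.3 to 454 CPM and 138 to 330 CPM. SC markers such as *Sox10*, *S100b* and *Mbp* were detected in all 14 libraries, none of the 12 being at 0. Among controls, DRG3 had the highest sum of SC markers (14020 CPM, against 5071 in DRG4 and 4646 in DRG5). It was also highest in perineurial markers (738, against 306.5 and 308.8) and neuron markers (6002, against 2826 and 1653). Its muscle markers were the lowest (3805, against 8806 and 15420). In *Dhh*, *Shh*, *Ptch1*, *Smo*, *Hhip*, *Gli1* and *Gli2*, DRG3 was the highest control. The part of tissue content in this was not tested. In whole tissue, more cells of a type and more RNA per cell cannot be told apart.

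Both ligands that were measurable were higher in PNs. *Dhh* (chr15:98891152-98898540 of mm10, minus strand), the ligand of SCs, was at 130, 50.3 and 49.3 CPM in the 3 controls. In slow-growing PNs it was at 303, 466, 253, 155 and 456 CPM, and in fast-growing PNs it ranged from 325 to 465 CPM with a median of 428. Every PN was above every control, the lowest PN being PN 1203. The means were 76.4 ± 46.1 CPM (SD, n = 3) in controls, 327 ± 134 (n = 5) in slow-growing PNs and 403 ± 55.7 (n = 6) in fast-growing PNs. *Dhh* was 4.82-fold higher in PNs than in controls, with a log2 fold change of 2.27 ± 0.39 (SE) and an edgeR adjusted p of 0.000755. It was 4.19-fold higher in slow-growing PNs (log2 fold change 2.07 ± 0.49, edgeR adjusted p = 0.0315) and 5.14-fold higher in fast-growing PNs (2.36 ± 0.33, edgeR adjusted p = 0.000698). The call in slow-growing PNs was lost without DRG4 (edgeR adjusted p = 0.136), DRG5 (0.144), PN 1079 (0.0568), PN 1198A (0.0517) or PN 1206 (0.0587).

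*Shh* (chr5:28456815-28467256, minus strand), best known as the ligand that patterns the neural tube and limb, was lower in level than *Dhh* and differed by nearly the same factor. It was at 7.60, 4.25 and 5.18 CPM in controls, from 88, 46 and 49 reads. In slow-growing PNs it was at 26.0, 31.6, 22.2, 15.2 and 35.7 CPM, and in fast-growing PNs it ranged from 8.46 to 44.7 CPM with a median of 27.9. No PN overlapped the controls. The highest value was that of PN 1191, the library with the lowest neuron markers, and the lowest among PNs was that of PN 1216, at 8.46 CPM from 126 reads. *Shh* was 4.66-fold higher in PNs (log2 fold change 2.22 ± 0.41, edgeR adjusted p = 0.00138). The log2 fold change was 2.17 ± 0.34 in slow-growing PNs (edgeR adjusted p = 0.00624) and 2.19 ± 0.46 in fast-growing PNs (edgeR adjusted p = 0.00596). With the summed neuron markers as a covariate, an alternative added after the data were seen, the difference over all PNs was 2.19 (edgeR adjusted p = 0.00084).

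*Ihh* (chr1:74945315-74951672, minus strand), the ligand of growing cartilage, was all but absent. No read was counted in any control, where 3 counts would be 0.259, 0.277 and 0.317 CPM. Slow-growing PNs 1198A and 1206 had 2 reads each and fast-growing PN 1071 had 5 reads, or 0.340 CPM, and the other 8 PNs had 0. *Ihh* did not pass the filter on low counts in any comparison and was not tested, so 8 of the 9 genes are counted below.

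Among the ligands, levels can be compared per kilobase of the longest transcript. On that scale *Dhh* was at 18.01 ± 10.9 CPM per kb (SD, n = 3) in controls and 86.9 ± 23.9 (n = 11) in PNs, and *Shh* at 1.99 ± 0.61 and 9.32 ± 3.39. The difference between *Shh* and *Dhh* in log2(CPM + 1), a measure added after the data were seen, was -3.41 ± 0.46 in controls and -3.78 ± 0.51 in PNs. The difference of -0.37 did not pass a two-sided exact permutation test (p = 0.236). Slow- and fast-growing PNs had means of -3.54 ± 0.21 and -3.99 ± 0.62 (exact permutation p = 0.121). Without PN 1191, that difference was -0.57 (exact permutation p = 0.0318 before adjustment). Of 11 libraries left out in turn, this was the only 1 to change the side of the threshold. PN 1216 had the lowest value, at -5.11. Both genes share exon sequence with neighbors: *Shh* with *Gm26894* and *9530036O11Rik* on the opposite strand, over 361 and 446 of 2847 bases, and *Dhh* with *Rhebl1* on the same strand, over 546 of 4399 bases, and *Gm49442* on the opposite strand, over 1107. The strand setting of the counting is not given in the sources used here, so reads from opposite-strand neighbors cannot be told apart. *Rhebl1* was at 4.20 ± 0.64 CPM in controls and 5.72 ± 2.26 in PNs, and *9530036O11Rik* at 0.24 ± 0.23 and 1.67 ± 0.93 CPM. The other 2 neighbors were not analysed here.

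**Figure D1:**
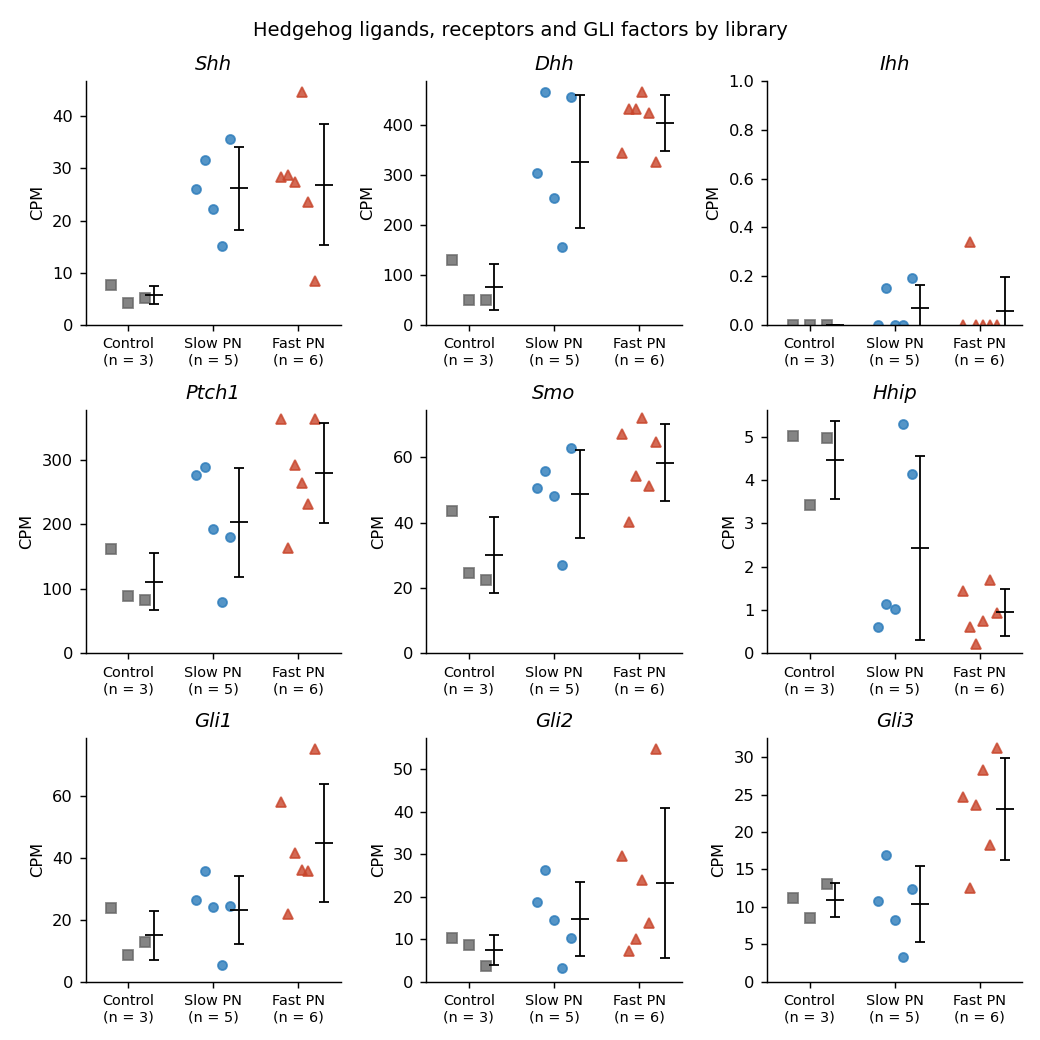
CPM of the 9 Hedgehog genes in each library, by group (squares, 3 control DRGs with nerves; circles, 5 slow-growing PNs; triangles, 6 fast-growing PNs), with the mean and SD as bars to the right of each group; axes start at 0 and differ between genes. *Shh* and *Dhh* in every PN lie above every control, *Hhip* in every fast-growing PN lies below every control, and *Ihh* is at 0 in 11 of 14 libraries.

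Among the receptors, *Ptch1* and *Smo* were higher in PNs than in controls. *Ptch1* (chr13:63508328-63573598, minus strand) was at 162, 88.0 and 82.9 CPM in controls and at 276, 288, 192, 78.9 and 181 CPM in slow-growing PNs. In fast-growing PNs it ranged from 164 to 363 CPM with a median of 278. Slow-growing PNs overlapped the controls through PN 1203 alone, at 78.9 CPM, and no fast-growing PN overlapped them. *Ptch1* was 2.21-fold higher in PNs (log2 fold change 1.14 ± 0.38, edgeR adjusted p = 0.0403) and 2.45-fold higher in fast-growing PNs (1.29 ± 0.31, edgeR adjusted p = 0.012). In slow-growing PNs the log2 fold change was 0.84 ± 0.43 and did not pass (edgeR adjusted p = 0.218). The call over all PNs was close to the threshold: it was lost when any 1 of 9 libraries was left out, with log2 fold changes from 0.97 to 1.12 and adjusted p up to 0.189 in edgeR, and when the trend with transcript length and GC content was removed (0.91, edgeR adjusted p = 0.116). For fast-growing PNs it was lost without DRG4 (edgeR adjusted p = 0.0588) or DRG5 (0.0548). In that comparison edgeR called 6 of the 9 fibroblast markers higher and 1 lower, with a median log2 fold change of 1.41, where 14.8% of all genes were called higher and 16.7% lower, and their part in the values of *Ptch1*, *Gli1* and *Gli3* was not tested.

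*Smo* (chr6:29735503-29761365, plus strand), the signal transducer that PTCH1 holds in check, was at 43.6, 24.7 and 22.4 CPM in controls and at 50.5, 55.8, 48.0, 27.0 and 63.0 CPM in slow-growing PNs. Fast-growing PNs ranged from 40.3 to 72.0 CPM with a median of 59.6. The groups overlapped at control DRG3, which was above PNs 1203 and 1071. *Smo* was 1.78-fold higher in PNs (log2 fold change 0.84 ± 0.27, edgeR adjusted p = 0.0332) and 1.88-fold higher in fast-growing PNs (0.91 ± 0.26, edgeR adjusted p = 0.0238), while the value for slow-growing PNs was 0.66 ± 0.32 (edgeR adjusted p = 0.201). Over all PNs the call was lost without DRG4 (edgeR adjusted p = 0.161), DRG5 (0.188), PN 1053 (0.0568) or PN 1214 (0.0593), and for fast-growing PNs without DRG4 (0.102) or DRG5 (0.0931).

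*Hhip* (chr8:79965851-80058006, minus strand), the decoy, differed in the other direction. It was at 5.01, 3.42 and 4.97 CPM in controls, from 58, 37 and 47 reads. Fast-growing PNs ranged from 0.22 to 1.70 CPM with a median of 0.85, from 3 to 26 reads, and all 6 were below every control. Slow-growing PNs split: 3 were at 0.61, 1.13 and 1.02 CPM, and PNs 1203 and 1206 were at 5.29 and 4.15 CPM, within or above the range of controls. *Hhip* fell by 2.28 ± 0.48 on the log2 scale in fast-growing PNs (edgeR adjusted p = 0.00631), and this call held without each of the 9 libraries in turn. Over all PNs the log2 fold change was -1.47 ± 0.65 (edgeR adjusted p = 0.108), and in slow-growing PNs it was -0.92 ± 0.68 (edgeR adjusted p = 0.369). The gene was called lower over all PNs without PN 1203 (-1.83, edgeR adjusted p = 0.0231), by limma-voom (-1.97, limma adjusted p = 0.0119) and with the trend in transcript length and GC content removed (-1.85, edgeR adjusted p = 0.0439). Most alternatives did not call it: it was called in 1 of 14 fits with a library left out and in 3 of 9 other settings. DESeq2, RLE factors, no filter, all libraries in 1 fit and the marker covariates gave no call.

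The promoters of *Dhh*, *Ptch1* and *Hhip* are shown, since these are a ligand, a receptor and a decoy whose levels differed in opposite directions. Each window runs from 250 bases before to 50 bases after a gene start in RefSeq (GRCm38.p6), 5′ to 3′ on the strand of the gene. Windows were found for 7 of the 9 genes. They were searched on both strands for GACCACCCA, the consensus letters of a GLI site, and for its core CCACCC, which reads GGGTGG when it lies on the other strand, and the core is in capitals.
Dhh promoter: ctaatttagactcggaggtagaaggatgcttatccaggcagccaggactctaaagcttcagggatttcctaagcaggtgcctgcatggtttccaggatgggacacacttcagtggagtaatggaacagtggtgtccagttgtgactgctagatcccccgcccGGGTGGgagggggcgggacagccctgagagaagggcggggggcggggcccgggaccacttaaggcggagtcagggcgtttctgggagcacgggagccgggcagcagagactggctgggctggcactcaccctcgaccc
Ptch1 promoter: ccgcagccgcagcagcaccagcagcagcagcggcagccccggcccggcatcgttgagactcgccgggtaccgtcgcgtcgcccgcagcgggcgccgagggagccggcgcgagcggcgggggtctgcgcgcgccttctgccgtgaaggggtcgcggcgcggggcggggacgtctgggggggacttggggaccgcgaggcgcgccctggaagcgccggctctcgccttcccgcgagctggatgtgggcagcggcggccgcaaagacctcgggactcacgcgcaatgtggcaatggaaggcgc
Hhip promoter: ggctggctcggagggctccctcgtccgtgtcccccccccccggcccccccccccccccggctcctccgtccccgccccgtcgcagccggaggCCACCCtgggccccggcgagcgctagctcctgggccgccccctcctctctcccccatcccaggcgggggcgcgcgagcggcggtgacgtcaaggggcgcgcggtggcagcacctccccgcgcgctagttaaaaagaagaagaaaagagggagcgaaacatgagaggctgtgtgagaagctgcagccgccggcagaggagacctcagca
The windows are chr15:98898491-98898790, chr13:63565686-63565985 and chr8:80057959-80058258, all on the minus strand. That of *Ptch1* lies within the gene as the GENCODE annotation draws it. The full consensus was in none of the 7 windows, and in 0.25% of the 32851 promoters of the table. The core, which is part of the consensus, was in the windows of *Dhh* and *Hhip* once each, in those of *Smo* and *Gli3* once each, in those of *Gli2* and *Ihh* 2 times each, and not in that of *Ptch1*. It was in 31.48% of all promoters. These are matches of letters only.

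Of the GLI factors, edgeR called *Gli1* and *Gli3*, both in fast-growing PNs, all of which had a higher sum of fibroblast markers than any control. *Gli1* (chr10:127329882-127341974, minus strand), an activator whose transcript rises with pathway activity, was at 23.7, 8.51 and 12.7 CPM in controls and at 26.2, 35.6, 24.1, 5.38 and 24.3 CPM in slow-growing PNs. In fast-growing PNs it ranged from 21.7 to 75.2 CPM with a median of 38.8. PN 1203 was below every control, and DRG3 was above PN 1071, the lowest fast-growing PN. *Gli1* was 2.91-fold higher in fast-growing PNs (log2 fold change 1.54 ± 0.44, edgeR adjusted p = 0.0249), a call lost without DRG4 (edgeR adjusted p = 0.0975) or DRG5 (0.091). Over all PNs the log2 fold change was 1.22 ± 0.56 (edgeR adjusted p = 0.12), and without PN 1203 it was 1.34 (edgeR adjusted p = 0.0282). The latter was the only call among 14 fits with a library left out. In slow-growing PNs it was 0.60 ± 0.55 (edgeR adjusted p = 0.472). *Gli1* shares 62 of 4995 exon bases with *Arhgap9*, a gene of blood cells on the opposite strand, which was at 16.2 ± 14.3 CPM in controls and 6.52 ± 5.13 in PNs. *Gli1* also shares 265 exon bases with *Gm47200*, *Hhip* shares 175 of 9076 with *Gm27820* and *Gli3* shares 188 of 9589 with *Gm6556*, each on the opposite strand and not analysed here.

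*Gli3* (chr13:15463235-15730026, plus strand), the main source of GLI repressor, was at 11.2, 8.51 and 13.01 CPM in controls and at 10.7, 17.0, 8.23, 3.29 and 12.4 CPM in slow-growing PNs, which lay on both sides of the controls. Fast-growing PNs ranged from 12.5 to 31.2 CPM with a median of 24.1, and only PN 1071 lay within the range of controls. *Gli3* was 2.04-fold higher in fast-growing PNs (log2 fold change 1.03 ± 0.30, edgeR adjusted p = 0.0285). That call was lost without DRG3 (edgeR adjusted p = 0.0658), DRG4 (0.115) or PN 1053 (0.0529). It was also lost in limma-voom (0.99, limma adjusted p = 0.0655), with all 14 libraries in one fit (1.08, edgeR adjusted p = 0.063), with muscle and fat covariates (0.02, edgeR adjusted p = 0.9997) and with the trend in transcript length and GC content removed (0.77, edgeR adjusted p = 0.107). In slow-growing PNs the log2 fold change was -0.11 ± 0.45 (edgeR adjusted p = 0.878), and over all PNs it was 0.66 ± 0.50 (edgeR adjusted p = 0.346).

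*Gli2* (chr1:118834132-119053619, minus strand), the main activator in most tissues, was not called by edgeR in any comparison. It was at 10.4, 8.60 and 3.60 CPM in controls and at 18.9, 26.4, 14.6, 3.29 and 10.4 CPM in slow-growing PNs, and fast-growing PNs ranged from 7.35 to 54.8 CPM with a median of 18.9. The spread within each group was wide, with PN 1216 at 54.8 CPM and PN 1203 at 3.29 CPM. The log2 fold change was 1.36 ± 0.67 over all PNs (edgeR adjusted p = 0.149) and 1.60 ± 0.67 in fast-growing PNs (edgeR adjusted p = 0.101), where DESeq2 did call it (1.59, DESeq2 adjusted p = 0.0327).

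Counted over the 8 genes tested, edgeR called 4 higher and none lower in PNs, where 26.3% of 16283 genes were called, 12.9% as higher and 13.4% as lower. Of the 8, 2 (*Shh* and *Dhh*) had every PN above every control, and 17.7% of all genes had groups that did not overlap in either direction. In slow-growing PNs 2 of the 8 were called, both higher, where 11.3% of 15714 genes were called and 4.12% were called higher. In fast-growing PNs 6 were called higher and 1 lower, where 31.4% of 16037 genes were called, 14.8% as higher and 16.7% as lower. The median log2 fold change of the 8 was 1.18, 0.75 and 1.42 in these comparisons, against 0.10, 0.04 and 0.02 over all genes tested. These counts moved with single libraries. Over all PNs 2 of the 8 were called without DRG4, DRG5, PN 1053 or PN 1214, and 6 without PN 1203. All genes were called at 14.9% without DRG4, 12.5% without DRG5, 23.5% without PN 1053, 22.6% without PN 1214 and 29.4% without PN 1203. In slow-growing PNs 1 was called without DRG4, DRG5, PN 1079, PN 1198A or PN 1206, and 3 without PN 1203, where all genes were called at 3.74% to 12.5%. In fast-growing PNs 3 were called without DRG4 and 4 without DRG5, where 22.0% and 20.4% of all genes were. Without PNs 1203 and 1191, an alternative added after the data were seen, 5 of the 8 were called higher and 1 lower over all PNs. In that fit 29.9% of all genes were called. With the mean levels of skeletal muscle and fat markers as covariates, only *Shh* was called over all PNs (log2 fold change 2.56, edgeR adjusted p = 0.032). *Dhh* was then at 1.86 (edgeR adjusted p = 0.0586), *Ptch1* at 0.49 (0.613) and *Smo* at 0.49 (0.465), and edgeR called no gene of the 8 in slow-growing or in fast-growing PNs. Over 7 settings that include this fit, log2 fold changes in fast-growing PNs were 2.34 to 2.60 for *Dhh* and 2.05 to 4.39 for *Shh*. Those of *Ptch1* (-0.32), *Gli1* (-0.89) and *Gli2* (-1.47) turned in this fit. In slow-growing PNs *Dhh* was at 1.88 to 2.10 and *Shh* at 2.12 to 2.23, and *Gli3* turned (0.32). The loss of calls ran over the whole table: with these covariates edgeR called 3.72% of all genes over all PNs, and 0 of 15714 and 0 of 16037 genes in slow- and fast-growing PNs. Both marker sums separate the controls from every PN, so what they and the group each carry cannot be told apart.

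**Figure D2:**
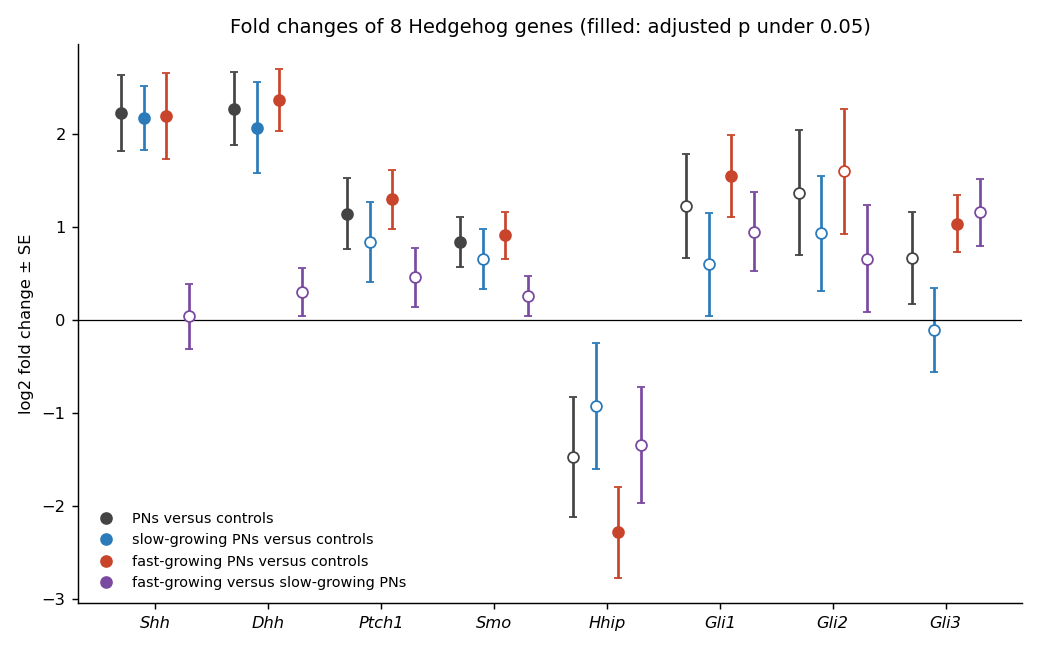
Log2 fold change with its SE for the 8 Hedgehog genes tested, in 4 comparisons (black, all PNs against controls; blue, slow-growing; red, fast-growing; purple, fast- against slow-growing PNs). Filled points have an adjusted p under 0.05 in edgeR: *Shh* and *Dhh* are filled in the 3 comparisons with controls, and no point is filled between fast- and slow-growing PNs.

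Fast- and slow-growing PNs were then compared with each other. By edgeR none of the 8 genes was called, where 1.27% of 15465 genes were, and 2 of the 8 (*Gli1* and *Gli3*) had an unadjusted p under 0.05, or 25.0% against 20.4% of all genes tested. *Gli3* had the largest rise in estimate, with a log2 fold change of 1.15 ± 0.36 by edgeR's quasi-likelihood test (edgeR p before adjustment = 0.00829; edgeR adjusted p = 0.106). DESeq2 called *Gli3* alone of the 8 (1.14, DESeq2 adjusted p = 0.033), where it called 10.3% of all genes, limma-voom called none, and edgeR called *Gli3* when PN 1198A was left out (1.41, edgeR adjusted p = 0.0434), where it called 7.65% of all genes. *Gli1* was at 0.95 ± 0.42 (edgeR adjusted p = 0.234) and *Hhip* at -1.35 ± 0.62 (edgeR adjusted p = 0.25). The ligands and *Smo* had small estimates, of 0.04 ± 0.35 for *Shh*, 0.30 ± 0.26 for *Dhh* and 0.25 ± 0.22 for *Smo*, and *Ptch1* and *Gli2* were at 0.46 ± 0.31 and 0.66 ± 0.57. The summed fibroblast markers were at 1261 to 5584 CPM in slow-growing and 5477 to 10360 CPM in fast-growing PNs, fat markers at 35.6 to 3432 and 31.5 to 387 CPM, and macrophage markers at means of 177 and 508 CPM. The median log2 fold change was 0.997 for the fibroblast list and 1.63 for the 7 macrophage markers tested, and edgeR called no marker of either. The part of these in the estimates was not tested, beyond the covariate fit for muscle and fat, in which edgeR called none of the 8 and none of the 15465 genes tested.

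Because *Dhh* is a transcript of SCs, its level was also set against 12 SC markers (among them *Sox10*, *S100b*, *Erbb3*, *Cdh19*, *Mbp*, *Prx*, *Mal*, *Cldn19* and *Mag*), as *Dhh* minus their mean in log2(CPM + 1). This difference was -1.31, -1.40 and -1.26 in controls. It was -0.60, 0.17, -0.50, -0.39 and -0.39 in slow-growing PNs and 0.27 to 0.72 in fast-growing PNs, with no overlap among the 3 groups. PNs were above controls by 1.39 (two-sided exact permutation p = 0.0055, adjusted p = 0.00733 over 4 tests), higher in 11 of 11 PNs. Fast-growing PNs were above slow-growing PNs by 0.75 (exact permutation p = 0.00433, adjusted p = 0.00733), with means of 0.41 ± 0.17 (n = 6) and -0.34 ± 0.30 (n = 5). Both p-values are the smallest that these group sizes allow. The summed SC markers were at 4646 to 14020 CPM in controls, 7216 to 22330 in slow-growing PNs and 6287 to 10650 in fast-growing PNs, so the fast-growing PNs had the narrower and lower range among PNs while their *Dhh* was at 325 to 465 CPM. The difference between fast- and slow-growing PNs depended on which markers were used. Of the 12, 8 are genes of myelin, and 4 (*Sox10*, *S100b*, *Erbb3* and *Cdh19*) are not, a split made after the data were seen. Set against these 4, *Dhh* was at 0.09 ± 0.16 (n = 3) in controls, 0.66 ± 0.19 (n = 5) in slow-growing PNs and 0.68 ± 0.18 (n = 6) in fast-growing PNs. Fast- and slow-growing PNs then differed by 0.02 (exact permutation p = 0.836), while PNs were above controls by 0.57 (exact permutation p = 0.0055), with no PN in the range of controls. The markers themselves also differed between PNs and controls. The mean of the 4 outside myelin in log2(CPM + 1) was 6.03 ± 0.75 (SD, n = 3) in controls, 7.59 ± 0.57 in slow-growing and 7.97 ± 0.07 in fast-growing PNs, with mean values higher in both PN groups, as for *Dhh*. The mean of the 8 myelin genes was 8.16 ± 0.80, 9.09 ± 0.66 and 8.38 ± 0.27. Of the 12, edgeR called 4 higher and none lower over all PNs, 2 higher in slow-growing and 4 higher in fast-growing PNs, where 12.9%, 4.12% and 14.8% of all genes were called higher.

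*Ptch1* was set against 6 perineurial markers (*Slc2a1*, *Cldn1*, *Lypd2*, *Mpzl2*, *Itgb4* and *Msln*) in the same way. Of these, edgeR called 1 lower and none higher in PNs, against 13.4% and 12.9% of all genes. The difference was 1.37, 1.77 and 1.59 in controls, 2.25, 2.73, 2.41, 2.77 and 2.15 in slow-growing PNs and 2.21 to 3.24 in fast-growing PNs. Every PN was above every control, by 1.09 on average (two-sided exact permutation p = 0.0055, adjusted p = 0.00733). Fast-growing PNs were above slow-growing PNs by 0.37, which did not pass (exact permutation p = 0.0779). Without PN 1191, the lowest of the fast-growing PNs, the difference was 0.50 (exact permutation p = 0.00794 before adjustment). Of 11 libraries left out in turn, this was the only 1 to change the side of the threshold. These values depended on how the markers were combined. Against the log2 of their summed CPM, an alternative added after the data were seen in which the most abundant markers weigh most, *Ptch1* was at -2.18, -1.79 and -1.89 in controls, at -1.88 to -1.11 in slow-growing PNs and at -1.82 to -1.27 in fast-growing PNs. PNs 1206, 1191 and 1216 then lay within the range of controls, PNs as a whole were above controls by 0.43 (exact permutation p = 0.033 before adjustment), and fast- and slow-growing PNs differed by -0.09 (exact permutation p = 0.571). *Dhh* against the summed SC markers was above controls by 1.76 (exact permutation p = 0.0055) and higher in fast- than in slow-growing PNs by 1.06 (exact permutation p = 0.00433).

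**Figure D3:**
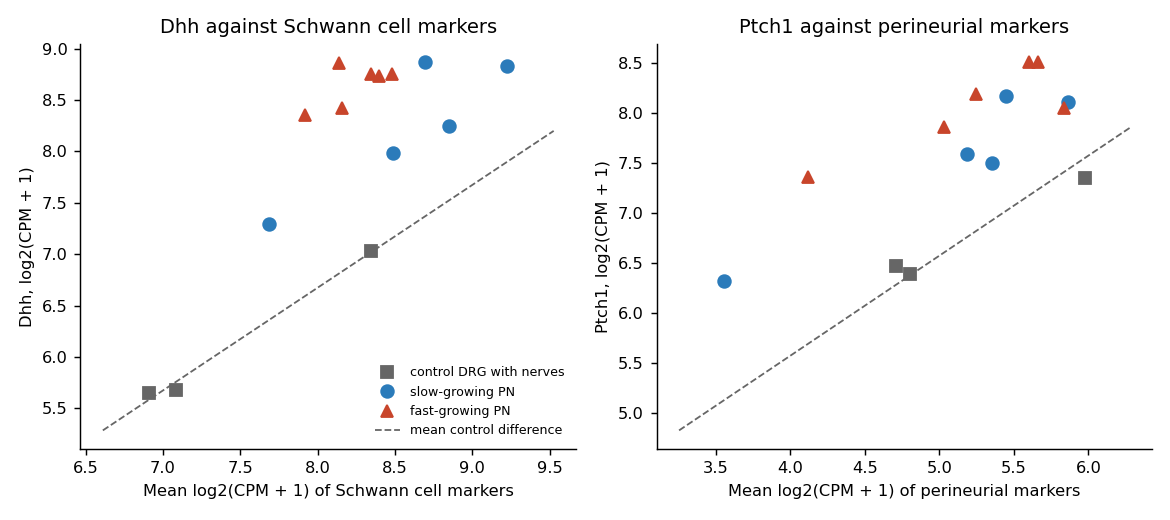
*Dhh* against the mean of 12 SC markers (left) and *Ptch1* against the mean of 6 perineurial markers (right), each in log2(CPM + 1), in 14 libraries. The dashed line has slope 1 and marks the mean difference in controls. All 11 PNs lie above it in both panels, and in the left panel the 6 fast-growing PNs lie farther above it than the slow-growing ones, a difference of 0.02 when the 4 SC markers outside myelin are used alone. With summed in place of averaged perineurial markers, 3 PNs lie within the range of controls.

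Within the 11 PNs, 6 relations between log2(CPM + 1) values were computed, with permutation p-values adjusted over the 6. *Ptch1* and *Gli1* rose and fell together (Pearson r = 0.96, permutation p = 2e-05, adjusted p = 0.00012; Spearman rho = 0.918, permutation p = 0.00011, adjusted p = 0.00066). PN 1203 was lowest in both and PN 1216 highest in *Gli1*. Without PNs 1203 and 1071, the farthest from the median of *Ptch1*, r was 0.867, and within the 6 fast-growing PNs it was 0.961. High values were not particular to this pair. Outside the 6 relations and without a test, *Ptch1* had r = 0.885 with *Gli3*, 0.882 with *Gli2*, 0.856 with *Smo* and -0.663 with *Hhip* over the 11 PNs. *Gli1* had r = 0.937 with *Gli3*, 0.869 with *Gli2* and 0.869 with *Smo*. *Dhh* and *Ptch1*, the ligand and its receptor, had r = 0.591 (permutation p = 0.0676, adjusted p = 0.0811) and rho = 0.173 (permutation p = 0.615, adjusted p = 0.615). That relation rested on PNs 1202 and 1203: without them r was -0.541, and within fast-growing PNs it was -0.692. *Gli1* and *Hhip* had r = -0.602 (permutation p = 0.0614, adjusted p = 0.0811) and rho = -0.273 (permutation p = 0.417, adjusted p = 0.501), and r was -0.117 without PNs 1203 and 1216 and 0.26 within fast-growing PNs.

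With the cell markers, *Gli1* followed the mean of 9 fibroblast markers (r = 0.89, permutation p = 0.00164, adjusted p = 0.00328; rho = 0.891, permutation p = 0.00052, adjusted p = 0.00156). Without PNs 1191 and 1203 r was 0.951, and within fast-growing PNs it was 0.553. *Ptch1* and the perineurial markers had r = 0.871 (permutation p = 0.00124, adjusted p = 0.00328). Their rho of 0.673 did not pass after adjustment (permutation p = 0.0274, adjusted p = 0.0549). Without PNs 1071 and 1203 r fell to 0.501, and within fast-growing PNs it was 0.857. *Dhh* and the SC markers had r = 0.522 (permutation p = 0.104, adjusted p = 0.104) and rho = 0.291 (permutation p = 0.386, adjusted p = 0.501). Without PNs 1203 and 1206 r was -0.058, so this relation too rested on those libraries, and it was 0.666 within fast-growing PNs. Correlations were computed only over 6 or more libraries, so none is given within the 5 slow-growing PNs.

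**Figure D4:**
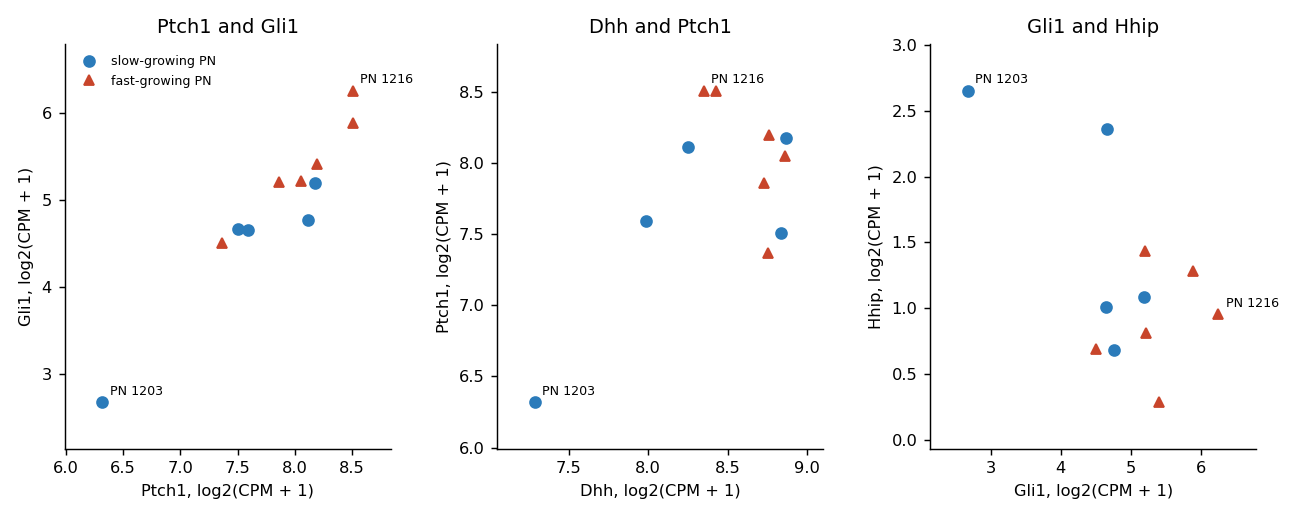
*Gli1* against *Ptch1*, *Ptch1* against *Dhh*, and *Hhip* against *Gli1* in log2(CPM + 1), in 5 slow-growing (circles) and 6 fast-growing (triangles) PNs. PN 1203 lies apart in all 3 panels. Only in the first do the other libraries follow the same line, with r = 0.867 after PNs 1203 and 1071 are left out.

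Across all 14 libraries, the 5 genes most like *Dhh* in log2 CPM among 14358 genes included *Fign* (r = 0.986), *Gpm6b* (0.98), *Fam212b* (0.978) and *AA388235* (0.978). With the mean of each group subtracted, the 5 most like *Dhh* included *Cadm4* (0.961), *Vwa1* (0.959) and *Gjc3* (0.959). The genes most like *Ptch1* were *Nr2f2* (0.958), *Pttg1ip* (0.956), *Gpc3* (0.954), *Islr* (0.953) and *Gli1* (0.95), and within groups *Islr* (0.964), *Lamb2* (0.956), *Foxd2os* (0.955), *Bmp1* (0.953) and *Dcn* (0.952). *Dcn*, which encodes the matrix protein decorin, is 1 of the 9 fibroblast markers used here. *Gli1* was most like *Islr* (0.986), *Dcn* (0.962), *Foxd2os* (0.956), *Mxra8* (0.953) and *Cldn1* (0.953), and within groups *Gsn* (0.98), *Islr* (0.978), *Pttg1ip* (0.961), *Ptch1* (0.951) and *Foxd2os* (0.947). These correlations describe 14 libraries that share 3 groups and differ in tissue content, and no test was made of them.

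Other genes of the pathway were taken from a list of 55, of which 54 passed the filter for PNs against controls. In PNs 12 of the 54 were called higher and 3 lower, with a median log2 fold change of 0.46. The 15 calls are 27.8% of the 54, near the 26.3% of all genes. Higher calls were 22.2% of the 54 against 12.9% of all genes and lower calls 5.56% against 13.4%, a difference that was not tested. In slow-growing PNs 1 of 52 was called (1.92%, against 11.3% of all genes), *Inpp5e*, and in fast-growing PNs 14 of 54 were higher and 4 lower (33.3%, against 31.4%). The counts by role below are for all PNs and small, and nothing particular to a role is read from them. Of the 6 genes of ligand release, 1 was called: *Scube1*, whose relatives encode secreted proteins that help free the ligand from cells, was 3.86-fold higher (log2 fold change 1.95 ± 0.43, edgeR adjusted p = 0.0047), at 59.0, 25.3 and 20.2 CPM in controls and 34.7 to 180 CPM in PNs. PN 1203, at 34.7 CPM, was the single PN below a control. Of 6 receptors and co-receptors, *Gpc3*, a glypican that competes with PTCH1 for ligand, was higher (1.45 ± 0.49, edgeR adjusted p = 0.0434), and *Gas1*, a co-receptor, was lower (-1.02 ± 0.27, edgeR adjusted p = 0.0122). *Gas1* was at 20.1, 15.9 and 20.5 CPM in controls and at 4.93 to 15.3 CPM in PNs, with every PN below every control. *Boc* and *Cdon*, the other co-receptors, were at 0.25 ± 0.26 and -0.77 ± 0.33 and did not pass over all PNs. In fast-growing PNs *Cdon* was called lower (-1.09 ± 0.35, edgeR adjusted p = 0.0406).

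For the counts that follow, 26.3% of all genes were called, 12.9% as higher and 13.4% as lower. Of 18 regulators of SMO and GLI, 3 were called. The kinase gene *Csnk1e* (0.65 ± 0.14, edgeR adjusted p = 0.00383) and *Tulp3* (0.80 ± 0.21, edgeR adjusted p = 0.012), which carries receptors into the cilium, were higher, and *Spop*, an adaptor for GLI degradation, was lower (-0.45 ± 0.10, edgeR adjusted p = 0.00549). *Sufu*, the main inhibitor that binds GLI proteins, was at -0.01 ± 0.17. Of 10 genes of the primary cilium, 4 were called, all higher: *Dync2h1* (0.64 ± 0.17), *Inpp5e* (0.55 ± 0.11), *Rpgrip1l* (0.65 ± 0.22) and *Bbs1* (0.61 ± 0.13), with edgeR adjusted p between 0.00203 and 0.0403. Of the 14 response genes tested, 4 were higher and 1 lower. *Ccnd1*, which encodes cyclin D1, was 6.06-fold higher (2.60 ± 0.87, edgeR adjusted p = 0.0401), but by library it split the PNs. It was at 44.7, 75.1 and 55.6 CPM in controls, at 84.5, 423, 56.2, 43.6 and 124 CPM in slow-growing PNs and at 340 to 846 CPM in fast-growing PNs. *Bcl2* (0.81 ± 0.16, edgeR adjusted p = 0.00182) and *Sfrp1* (0.95 ± 0.27, edgeR adjusted p = 0.0176) were higher, as was *Foxf2* (2.08 ± 0.69, edgeR adjusted p = 0.0394), which stayed under 1.5 CPM in every library. *Osr1* was lower (-1.42 ± 0.34, edgeR adjusted p = 0.0075), at 4.99 to 7.82 CPM in controls and 1.27 to 4.53 CPM in PNs. These response genes answer to several other signals as well. With muscle and fat covariates 1 of the 54 (1.85%) was called, and without DRG4 or DRG5 9 (16.7%) and 6 (11.1%) were, against 3.72%, 14.9% and 12.5% of all genes. Without DRG3, 20 (37.0%) were called, against 25.7% of all genes.

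Between fast- and slow-growing PNs, edgeR called none of the 53 pathway genes tested, where 1.27% of all genes were called, and 8 had an unadjusted p under 0.05, or 15.1% against 20.4% of all genes. DESeq2 called 3 (5.66%, against 10.3% of all genes), limma-voom none, edgeR 4 when PN 1198A was left out (7.41%, against 7.65%), and 1 when PNs 1203 and 1191 were left out (1.85%, against 3.27%). Among the 3 lowest p-values were those of *Disp1*, which releases the ligand (log2 fold change -0.76 ± 0.22, edgeR adjusted p = 0.0833), and of *Ccnd1* (1.85 ± 0.56, edgeR adjusted p = 0.0971). *Disp1* was at 68.0, 28.6, 47.9, 36.1 and 62.6 CPM in slow-growing PNs and at 23.0 to 33.4 CPM in fast-growing PNs. Both genes were chosen after their values were seen.

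**Figure D5:**
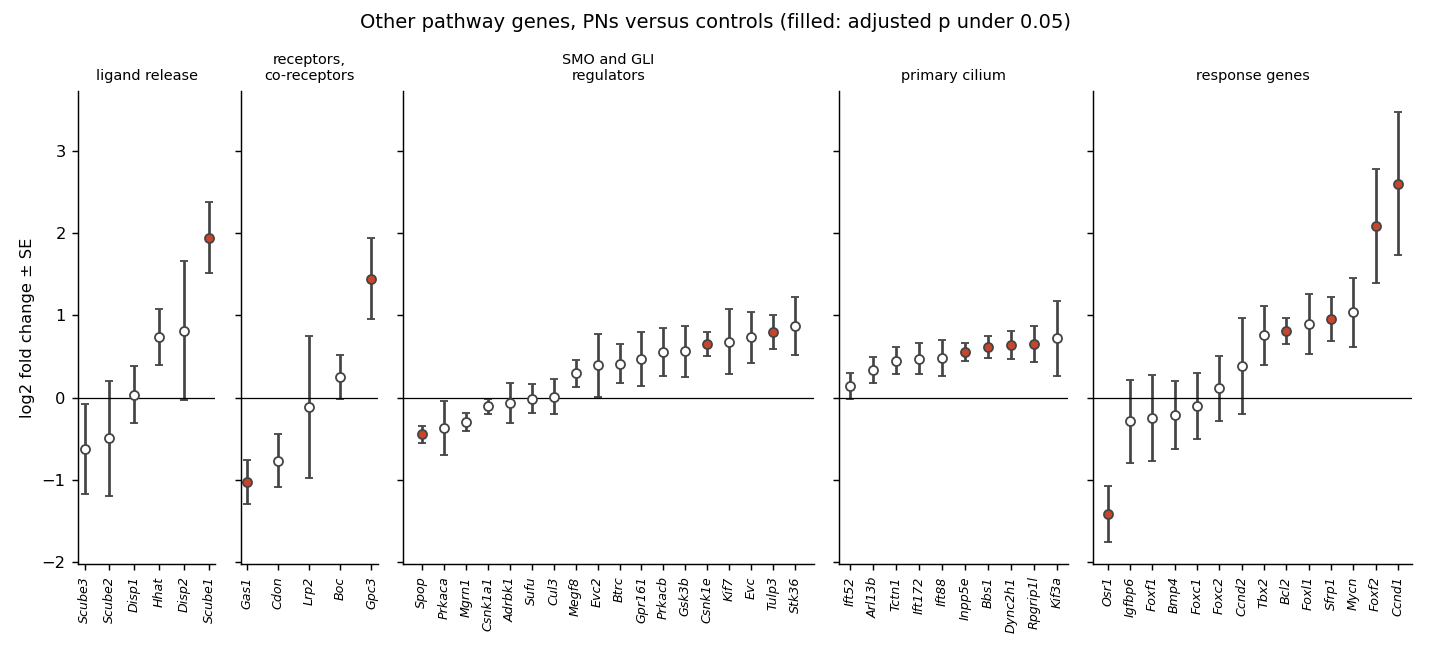
Log2 fold change with its SE for 53 of the 54 other pathway genes tested, PNs against controls, in 5 groups by role and sorted within each. Filled points have an adjusted p under 0.05 in edgeR: 12 lie above 0 and 3 (*Spop*, *Gas1* and *Osr1*) below; *Adrbk1* is an older symbol of *Grk2*.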

How the data were processed

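Total RNA for the 14 libraries was amplified by the authors (NuGEN Ovation RNA-Seq kit). Per the labels and the Methods, the authors processed reads with CASAVA 1.4 and FastQC 0.11.0, aligned them to mm10 with TopHat2 2.0.9 and counted them per gene with featureCounts 1.5.2. The authors deposited whole-number counts, which were used here without change, and log2 values normalized with edgeR 3.16.5, which were not used. The strand setting, sex and batch of each library are not given in the sources used here. The members and the gene lists were chosen with earlier results of these data known.

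Counts were analysed in R 4.3.3 with edgeR 4.0.16 (filterByExpr, TMM, quasi-likelihood), with only the libraries of a comparison in its fit. No covariate was used. P-values were adjusted over all genes tested by the Benjamini-Hochberg method. The SE of an edgeR log2 fold change was derived from the test, as its absolute value divided by the square root of the F statistic. Relative levels used log2(CPM + 1) with a pseudocount of 1 and exact permutation over libraries; relations used 100000 permutations in NumPy. The named genes were the 9 members, the called pathway genes (or the 4 largest rises and 4 largest falls where more than 12 were called; all 15 are named here, 8 rises and the uncalled genes being chosen after their values were seen), and the 5 genes most like *Dhh*, *Ptch1* and *Gli1* among genes whose mean log2 CPM was 1 or more. Alternatives were DESeq2 1.42.0, limma-voom (limma 3.58.1), RLE factors, no filter, all libraries in 1 fit, marker covariates, removal of length and GC trends, a pseudocount of 0.1, and each library left out in turn. The fits were also run on simulated counts that held no differences in tissue content, so that run does not bear on such differences here. Positions, lengths and overlaps came from GENCODE vM21, built on mm10. Of the table's symbols, 22750 matched directly, 935 through an older name and 377 had no match. Promoters came from RefSeq. Labels give each library its own identifier but do not say whether tissue or mice were pooled, so the p-values measure the spread between these libraries. No 2 libraries agreed within sampling noise. Some genes that these rules and lists hold are not reported here by name. The marker *Adgre1* was not in the table used.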

Additional observations from a re-analysis of the deposited data

Results flagged for a closer look

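In a search of 24 groups of values (the 9 genes and 3 relative levels, each in slow- and in fast-growing PNs) for a library far from the others, 3 stood out by Dixon's criterion, and chance marks about 1 in 20. *Ihh* was at 0.34 CPM (5 reads) in fast-growing PN 1071 and at 0 in the other 5 fast-growing PNs. With those at 0, any read in a single library would have stood out, so nothing is read from this value. *Dhh* relative to SC markers was highest in slow-growing PN 1198A, at 0.169 against -0.391 for the next highest slow-growing PN. The same measure was highest in fast-growing PN 1191, at 0.723 against 0.432 for the next, and this was the library with the lowest neuron markers.

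The difference from controls of *Dhh* relative to SC markers was larger in fast- than in slow-growing PNs, by 0.751 (exact permutation p = 0.00433, adjusted p = 0.00733 over 4 tests), with 6 of 6 fast-growing PNs above every slow-growing PN. Against the 4 SC markers outside myelin alone it was 0.02 (exact permutation p = 0.836).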

How the results depend on the processing

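Of 875 alternative values, 756 kept their direction and their side of the threshold or, for counts, stayed within 1.5 times the main count. With muscle and fat covariates, calls among the 8 Hedgehog genes fell to 1 in all PNs, 0 in slow-growing and 0 in fast-growing PNs, and calls among other pathway genes in all PNs to 1, while calls among all genes fell to 3.72%, 0 and 0 in the same 3 comparisons. The same fit turned *Gli1* (-0.043) and *Gli3* (-0.87) over all PNs, *Gli3* in slow-growing PNs (0.32), and *Ptch1* (-0.32), *Gli1* (-0.89) and *Gli2* (-1.47) in fast-growing PNs. *Gli3* in slow-growing PNs was also turned without DRG5 (0.03) or PN 1203 (0.14), its range being -0.36 to 0.14. *Shh* between fast- and slow-growing PNs, at 0.04 in the main fit, was turned by limma-voom (-0.061) and without PNs 1203 and 1191 (-0.35). It was also turned without PNs 1202 (-0.01), 1203 (-0.11) or 1191 (-0.20). Its range was -0.20 to 0.23 with each library left out in turn and -0.35 to 0.68 over the other settings. DESeq2 called 1 Hedgehog gene and 3 other pathway genes between fast- and slow-growing PNs, and without PNs 1203 and 1191 edgeR called 1 other pathway gene there. *Dhh* relative to the 4 SC markers outside myelin differed between fast- and slow-growing PNs by 0.024 and between PNs and controls by 0.57. *Ptch1* relative to the summed perineurial markers was turned between fast- and slow-growing PNs (-0.094). The cause was not tested.

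With each library left out in turn, calls among the 8 genes ranged from 2 to 6 in all PNs (2 without DRG4, DRG5, PN 1053 or PN 1214), from 1 to 3 in slow-growing PNs, from 3 to 7 in fast-growing PNs (3 without DRG4, 4 without DRG5) and from 0 to 1 between fast- and slow-growing PNs. Other pathway genes ranged from 6 to 20 and, between fast- and slow-growing PNs, from 0 to 4. The count of 20 came without DRG3 (37.0%, against 25.7% of all genes). *Dhh* relative to SC markers ranged from 1.33 to 1.46 and, fast against slow, from 0.69 to 0.88. *Ptch1* relative to perineurial markers ranged from 0.98 to 1.18 and from 0.29 to 0.49, and *Shh* relative to *Dhh* from -0.63 to -0.18 and from -0.57 to -0.22. No relation within PNs changed its side of the threshold with a pseudocount of 0.1 or without TMM factors. No paired analysis was possible because the labels give no numbers that pair libraries across groups. Depth limits *Ihh*, *Hhip* and *Foxf2*, which rest on few reads.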
